A study of Mus musculus with 48 samples.

Results

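The mouse zinc finger genes named Zfp500 to Zfp999 were described across wild-type embryonic stem cells and cells with a double knockout or catalytically deficient forms of Mll3 and Mll4. They were taken as every row of the expression table whose whole name is Zfp followed by a number in that range, with no letter after it, which gave 177 of 48321 rows. Of these, 161 reached 1 TPM (a transcript level scaled to gene length and library size) in at least 3 of 9 libraries and were tested, among 16179 tested genes in all. The numbers are a naming series and not a structural class, so the set holds members of several zinc finger subfamilies.

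Zinc finger proteins of this kind read DNA through rows of small loops, each folded around a zinc ion. Many of the mouse genes lie in clusters of recent duplicates and also carry a KRAB domain, which recruits the corepressor Trim28 and through it the methyltransferase Setdb1, so that the bound DNA is packed into silent chromatin. In embryonic stem cells this system is known for silencing endogenous retroviruses and for protecting imprinted marks. Other genes of the naming series encode developmental regulators or proteins of ribosome and RNA metabolism. Mll3 and Mll4 are the large methyltransferases that place methyl groups on histone H3 at enhancers.

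The cells were the R1 line of male mouse embryonic stem cells of 129SV origin, plated on fibronectin and grown with LIF and the inhibitors PD0325901 (of MEK) and CHIR99021 (of GSK3b), conditions that all 3 groups share. The groups were wild-type cells (WT), cells with a double knockout of Mll3/4 (dKO) and cells with catalytically deficient Mll3/4 (dCD), each with 3 libraries of polyadenylated RNA. Each genotype is represented by 1 line, and nothing in the labels tells whether the libraries of a line were grown as separate cultures. The p-values thus rest on the spread among libraries alone, possibly technical, and genotype and clone cannot be told apart.

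Libraries held 21090624 to 56249770 recovered reads, and the tested Zfp500 to Zfp999 genes had a median of 205 to 544 reads per library. Kmt2c (Mll3) averaged 21.1, 7.66 and 27 TPM in WT, dKO and dCD, and Kmt2d (Mll4) 66.4, 82.9 and 63.2 TPM. Which exons were edited is not stated in the labels, so these levels do not check the genotypes. All 7 markers of embryonic stem cells passed as lower in both mutant lines, with summed levels of 8680 to 8794 TPM in WT, 6183 to 6224 in dKO and 6158 to 6190 in dCD. Summed levels of 10 fibroblast or feeder markers were 8.64 to 10.2 TPM in WT, 115 to 126 in dKO and 525 to 572 in dCD, most of it from Acta2 in the mutant lines. Of the 6 tested fibroblast markers, 4 passed as higher and 1 (Thy1) as lower in dKO, and all 6 as higher in dCD. Both sets of marker calls stand beside a high background. In dKO 43.4% of the 16179 tested genes rose and 28.4% fell past the same threshold, and in dCD 28.9% and 29.5%. The collagen genes Col1a1, Col1a2 and Col3a1 averaged 0.470, 0.0189 and 0.00873 TPM in WT, 10.2, 1.28 and 1.11 in dKO and 7.57, 6.45 and 1.23 in dCD, and Pdgfrb 5.91, 6.60 and 11.1 TPM in WT, dKO and dCD. Dcn, Lum, Postn and Pdgfra stayed under 1 TPM in every library, with Lum listed at 0 in 6 of 9 and Pdgfra at 0.169, 0.607 and 0.875 TPM on average. Summed primitive endoderm markers were 9.15 to 10.7, 17.6 to 18.5 and 28.3 to 30.9 TPM, and summed trophoblast markers 31.6 to 33.6, 51.0 to 55.3 and 232 to 248 TPM, in the same order. The part of these differences in the zinc finger results was not tested, and in bulk RNA fewer cells of a type and less RNA per cell cannot be told apart.

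Not every gene of the series reached the minimum. Zfp708, a KRAB repressor of a retroviral repeat family, was listed at 0 in every library, as were Zfp616 and Zfp735, and another 13 rows held reads but missed the minimum. How reads that match several copies were counted is not given in the sources used here, so a listed 0 in such families cannot be told apart from reads that were left out. Just inside it were Zfp964, Zfp879 and Zfp677, whose third-highest libraries reached 1.02, 1.29 and 1.30 TPM, and just outside it were Zfp711, Zfp536 and Zfp781 at 0.916, 0.660 and 0.282 TPM. Among the 161 tested genes, 149 reached 1 TPM in all 9 libraries. In 10 genes no WT library reached it: Zfp503, Zfp521, Zfp608, Zfp618, Zfp703, Zfp783, Zfp853 and Zfp879 reached it in libraries of both dKO and dCD, and Zfp677 and Zfp964 in dKO alone. Zfp879 reached it in every dKO library (1.29 to 1.59 TPM), but in dCD only in replicate 1 (1.15 TPM). A gene with no WT library at 1 TPM could hardly pass without being higher in a mutant line, so counts are also given for the other 151.

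The tested genes were modestly expressed, with a median level over the 9 libraries of 10.6 TPM, against 14.2 TPM for all tested genes, and a range from 0.886 to 181.6 TPM. The 5 highest were Zfp598, a ubiquitin ligase that acts on collided ribosomes, Zfp553, Zfp622, a factor of the large ribosomal subunit, Zfp706, which is known to help embryonic stem cells leave the naive state, and Zfp568, a KRAB repressor of a placental Igf2 transcript. Zfp598 measured 188, 183 and 181 TPM in WT, 183, 183 and 182 in dKO and 177, 173 and 185 in dCD, so the 3 lines lay close together. It passed neither comparison with WT, but it passed as lower in dKO after median-ratio scaling (log2 fold change -0.11, limma adjusted p = 0.00398) and in dCD without dCD replicate 3 (limma adjusted p = 0.0323). Summed over the 161 genes, the level was 3292 to 3347 TPM in WT, 3388 to 3469 in dKO and 3000 to 3075 in dCD. After median-ratio scaling between libraries, chosen for this sum after the data were seen, it was 3367 to 3401 in WT, 3229 to 3283 in dKO and 3086 to 3107 in dCD. The order of WT and dKO thus depends on the scaling, and dCD was lowest on both scales.

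The comparison of dKO with WT asks how the genes stood in the Mll3/4 double knockout line. More of them were higher than lower in dKO: 91 of 161 passed as higher (56.5%) and 32 as lower (19.9%), by limma on log2(TPM + 1) at an adjusted p under 0.05. Over all tested genes 43.4% passed as higher and 28.4% as lower, 71.8% in either direction. The median log2 fold change was 0.26, against 0.10 over all tested genes. At least 2-fold, 12 were higher and 6 lower, or 7.45% and 3.73%, where all tested genes gave 6.01% and 7.89%. Among the 151 genes with a WT library at 1 TPM, 81 were higher and 32 lower, with a median of 0.24, and 7 and 6 of them by 2-fold. The ratio of higher to lower calls leaned on the scaling: 74.0% of the called genes were higher on TPM and 67.2% after median-ratio scaling between libraries, and over all tested genes these shares were 60.4% and 49.9%. The same scaling moved the median of the 161 genes to 0.16 and that of all tested genes to 0.01.

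**Figure D1:**
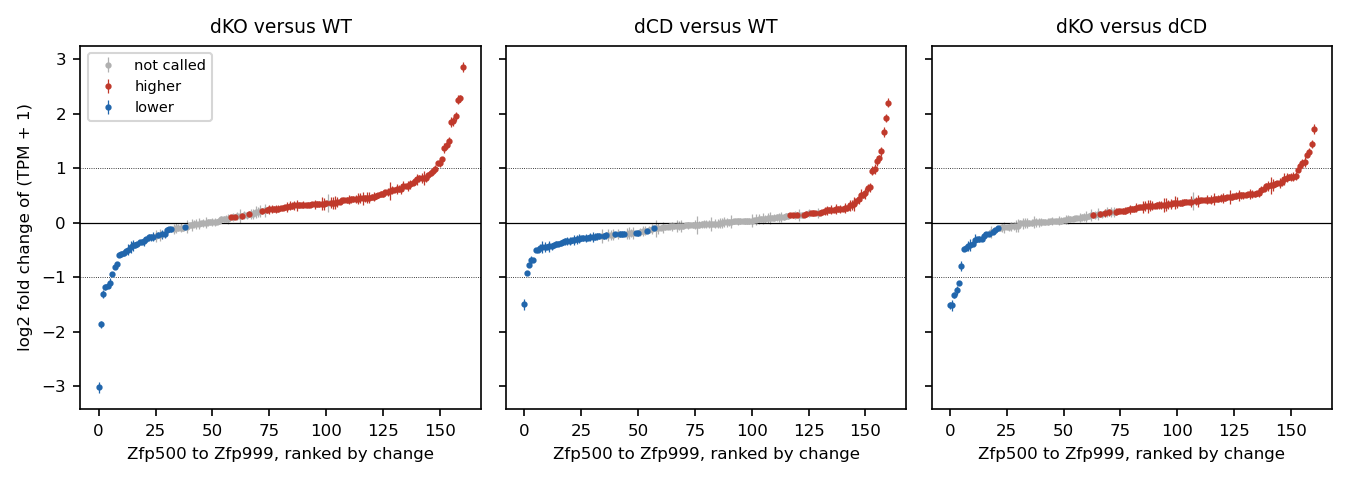
Log2 fold change of (TPM + 1) for the 161 tested genes (vertical axis), ranked within each comparison from lowest to highest (horizontal axis), with bars for the standard error and dotted lines at 2-fold. In dKO against WT most points lie above 0 (91 called higher, 32 lower), whereas dCD against WT is centred near 0 (39 higher, 44 lower).

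The deepest fall was in Zfp819, a KRAB protein that binds Trim28 and is known to restrain retroelements in pluripotent cells. It measured 17.1, 16.2 and 17.7 TPM in WT, 1.05, 1.60 and 1.07 in dKO and 4.93, 6.03 and 5.21 in dCD. Every dKO library was below every dCD library, and every dCD library below WT. The log2 fold change was -3.02 in dKO (SE 0.101, limma adjusted p = 1.61e-09) and -1.50 in dCD (limma adjusted p = 6.92e-07), and the dKO value rests on 20 to 39 reads per library.

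Zfp600 and Zfp534, neighbours in the set on chromosome 4, fell in dKO. Zfp600 measured 39.2, 37.9 and 40.3 TPM in WT, 9.94, 10.1 and 9.99 in dKO and 32.8, 31.3 and 27.6 in dCD. Its log2 fold change was -1.87 in dKO (SE 0.0566, limma adjusted p = 7.66e-10) and -0.35 in dCD (limma adjusted p = 0.000401). Zfp534 measured 34.2, 35.9 and 37.8 TPM in WT, 13, 13.2 and 15.6 in dKO and 36.1, 36.4 and 30.5 in dCD. It fell in dKO by 1.31 on the log2 scale (SE 0.0806, limma adjusted p = 1.54e-07), while its dCD libraries overlapped WT and did not pass (log2 fold change -0.07, limma adjusted p = 0.493). Genes of this cluster are close copies of each other, so their single values are uncertain where the counting could split shared reads.

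Promoters are shown for the 3 genes that fell most in dKO. A further 3, from the genes that rose, follow later, and all 6 were picked after the values were seen. They are RefSeq windows in the GRCm38.p6 build, from 250 bases before to 50 after the start, 5′ to 3′ on the gene's strand, with every CG dinucleotide in capitals. Zfp819 lies at chr7:43606919-43607218 on the plus strand and holds 20 CG dinucleotides. The first of 2 windows of Zfp600 lies at chr4:146156577-146156876 on the plus strand with 5, and that of Zfp534 at chr4:147702582-147702881 on the minus strand with 3.
Zfp819: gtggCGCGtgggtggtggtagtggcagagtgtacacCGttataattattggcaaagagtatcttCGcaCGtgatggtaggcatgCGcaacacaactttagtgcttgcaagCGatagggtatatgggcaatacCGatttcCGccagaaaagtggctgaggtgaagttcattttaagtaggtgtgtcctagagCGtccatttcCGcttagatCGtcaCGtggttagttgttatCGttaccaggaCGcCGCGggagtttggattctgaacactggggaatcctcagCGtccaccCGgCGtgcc
Zfp600: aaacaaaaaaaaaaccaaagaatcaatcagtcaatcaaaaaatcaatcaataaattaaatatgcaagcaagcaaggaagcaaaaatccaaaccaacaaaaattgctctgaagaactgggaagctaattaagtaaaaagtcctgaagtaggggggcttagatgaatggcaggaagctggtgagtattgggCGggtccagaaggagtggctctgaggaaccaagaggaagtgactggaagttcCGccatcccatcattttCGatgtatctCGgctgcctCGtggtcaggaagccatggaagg
Zfp534: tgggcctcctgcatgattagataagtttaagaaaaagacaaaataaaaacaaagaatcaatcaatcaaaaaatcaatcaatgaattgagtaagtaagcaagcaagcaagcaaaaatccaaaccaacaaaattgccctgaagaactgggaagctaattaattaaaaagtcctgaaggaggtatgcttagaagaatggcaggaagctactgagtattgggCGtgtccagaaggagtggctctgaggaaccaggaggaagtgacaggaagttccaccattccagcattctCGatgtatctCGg
Aligned over 330 columns, the Zfp600 and Zfp534 windows shared 239 bases (72.4%). Every other pair among the 6 windows printed here, aligned end to end in the same way, shared 41.8% to 49.4% of its columns.

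Another 7 genes completed the 10 lowest in dKO. Zfp951 averaged 18.9 ± 0.448 TPM in WT and 7.83 ± 0.528 in dKO (SD, n = 3), which is -1.17 on the log2 scale (SE 0.0562, limma adjusted p = 2.20e-08). Zfp936 fell from 79.5 ± 2.16 to 35.1 ± 0.386 TPM (log2 fold change -1.16) and Zfp640 from 46.5 ± 1.83 to 21.2 ± 3.11 TPM (log2 fold change -1.11). In each of these genes the 3 dKO libraries lay below the 3 WT libraries. Zfp568 measured 130.8, 130.5 and 137.3 TPM in WT, 66.4, 68.8 and 71.9 in dKO and 155.8, 145.9 and 148.6 in dCD. Its log2 fold change was -0.93 in dKO (SE 0.0365, limma adjusted p = 4.80e-09) and 0.17 in dCD (limma adjusted p = 0.00211), so its dCD libraries were the highest of the 3 lines. Zfp706 fell from 169 ± 3.76 to 96.2 ± 0.784 TPM in dKO and to 119 ± 2.01 TPM in dCD, and Zfp961 from 105 ± 2.86 to 61.5 ± 1.40 and 85.7 ± 3.32 TPM. Zfp655 had 51.4 ± 2.36 TPM in WT and 33.8 ± 1.17 TPM in dKO.

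**Figure D2:**
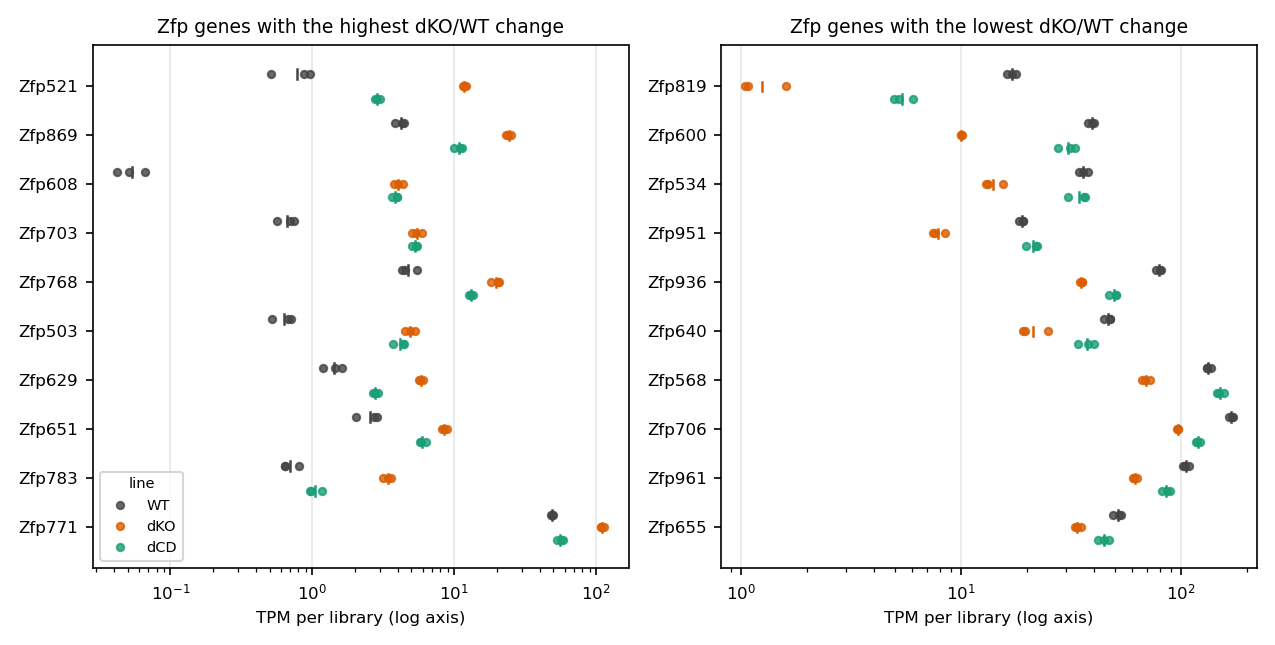
TPM in each library (points, log axis) and line mean (tick) for the 10 genes with the highest (left) and the 10 with the lowest (right) log2 fold change in dKO against WT. The genes were chosen among those whose dKO and WT libraries do not overlap, as 45% (higher) and 29.4% (lower) of all tested genes do not. For Zfp819 the dKO points lie at 1.05 to 1.60 TPM against 16.2 to 17.7 TPM in WT.

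The highest change in dKO was that of Zfp521, which was under 1 TPM in every WT library. Zfp521, a regulator of neural and blood cell fate, measured 0.961, 0.514 and 0.868 TPM in WT, 12.1, 11.6 and 11.7 in dKO and 2.88, 2.99 and 2.77 in dCD, with a log2 fold change of 2.85 in dKO (SE 0.0960, limma adjusted p = 1.66e-09) and 1.13 in dCD (limma adjusted p = 3.80e-06). The dKO libraries were the highest and the dCD libraries intermediate. Zfp608 had 2, 5 and 2 reads in the WT libraries (0.0421, 0.0663 and 0.0514 TPM) and rose to 4.02, 4.35 and 3.79 TPM in dKO and 3.95, 3.63 and 3.95 TPM in dCD. Its log2 fold changes of 2.26 and 2.20 depend on the 1 TPM added before the logarithm.

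The related corepressors Zfp503 and Zfp703, the first known from brain development and the second from breast cancer, rose in both mutant lines. Zfp703 averaged 0.668 ± 0.0892 TPM in WT, 5.46 ± 0.423 in dKO and 5.31 ± 0.228 in dCD, with log2 fold changes of 1.95 and 1.92. Zfp503 averaged 0.634 ± 0.102, 4.90 ± 0.399 and 4.18 ± 0.398 TPM, with log2 fold changes of 1.85 and 1.66 (limma adjusted p from 2.85e-08 to 1.55e-07). Neither of these, nor Zfp608, passed between dKO and dCD (limma adjusted p = 0.729, 0.0911 and 0.536). Zfp503, Zfp521, Zfp608 and Zfp703, and Zfp783 described next, are among the 10 genes that reached the minimum through mutant libraries.

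The other 6 of the 10 highest were Zfp869, Zfp768, Zfp629, Zfp651, Zfp783 and Zfp771. Zfp869 measured 4.28, 4.44 and 3.85 TPM in WT, 23.3, 24.0 and 25.3 in dKO and 11.4, 11 and 9.93 in dCD, a log2 fold change of 2.28 in dKO (SE 0.0641, limma adjusted p = 4.61e-10) and 1.18 in dCD (limma adjusted p = 1.34e-07). Zfp768 measured 4.48, 4.28 and 5.48 TPM in WT, 18.2, 20.4 and 20.8 in dKO and 13.1, 13.7 and 12.8 in dCD, with log2 fold changes of 1.86 (SE 0.0798, limma adjusted p = 9.64e-09) and 1.31. Both genes thus had dCD libraries between WT and dKO without overlap. Zfp771 measured 48.2, 49.0 and 49.5 TPM in WT, 114, 109 and 109 in dKO and 53.3, 58.5 and 56.7 in dCD, with log2 fold changes of 1.16 (SE 0.0360, limma adjusted p = 9.13e-10) and 0.19. Zfp629 (1.42 ± 0.211 to 5.81 ± 0.164 TPM), Zfp651 (2.55 ± 0.441 to 8.53 ± 0.302 TPM) and Zfp783 (0.695 ± 0.0953 to 3.4 ± 0.221 TPM) also rose in dKO.

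The windows of Zfp869, the riser with the highest change among genes that reached 1 TPM in WT, and of Zfp768 and Zfp771, from the same stretch of chromosome 7, are shown for comparison with those above. Zfp869 lies at chr8:69716853-69717152 on the minus strand and holds 8 CG dinucleotides. Zfp768 lies at chr7:127345265-127345564 on the minus strand with 35 CG dinucleotides, and Zfp771 at chr7:127244276-127244575 on the plus strand with 25.
Zfp869: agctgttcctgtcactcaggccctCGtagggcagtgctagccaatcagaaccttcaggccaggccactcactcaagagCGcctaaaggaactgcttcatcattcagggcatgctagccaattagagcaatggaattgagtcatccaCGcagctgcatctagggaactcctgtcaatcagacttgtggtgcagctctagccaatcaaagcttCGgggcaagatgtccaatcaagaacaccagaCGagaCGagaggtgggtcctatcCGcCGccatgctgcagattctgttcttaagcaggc
Zfp768: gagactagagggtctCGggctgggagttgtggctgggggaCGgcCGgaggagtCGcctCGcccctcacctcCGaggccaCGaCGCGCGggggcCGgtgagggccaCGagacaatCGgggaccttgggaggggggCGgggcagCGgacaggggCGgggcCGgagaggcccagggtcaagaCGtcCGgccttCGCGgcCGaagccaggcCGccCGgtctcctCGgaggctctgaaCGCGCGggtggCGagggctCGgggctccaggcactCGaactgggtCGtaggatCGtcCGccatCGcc
Zfp771: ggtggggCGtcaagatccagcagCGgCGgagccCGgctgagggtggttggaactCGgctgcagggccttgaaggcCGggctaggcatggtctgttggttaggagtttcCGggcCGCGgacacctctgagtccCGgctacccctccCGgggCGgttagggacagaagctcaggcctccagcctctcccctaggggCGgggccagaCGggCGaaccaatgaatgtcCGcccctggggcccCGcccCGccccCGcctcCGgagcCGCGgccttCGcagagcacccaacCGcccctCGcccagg
G and C made up 53% of the Zfp869 window, 74.0% of that of Zfp768 and 71.7% of that of Zfp771, with 40.0% for Zfp534, 42.7% for Zfp600 and 51.3% for Zfp819. The window of Zfp869 thus held fewer CG dinucleotides than that of Zfp819, the gene that fell most.

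The comparison of dCD with WT asks how the genes stood when the proteins lacked catalytic activity. Here 39 of 161 genes passed as higher (24.2%) and 44 as lower (27.3%), and 78 did not pass. Over all tested genes 28.9% passed as higher and 29.5% as lower. The median log2 fold change was -0.03, against -0.01 over all tested genes. At least 2-fold, 6 were higher (Zfp608, Zfp703, Zfp503, Zfp768, Zfp869 and Zfp521) and 1 was lower (Zfp819), where all tested genes gave 4.62% and 2.32%. Without the 10 genes below 1 TPM in every WT library, 31 of 151 were higher and 44 lower, and 2 of them were higher by 2-fold.

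Beyond those, the higher genes in dCD included Zfp651 at 0.98, Zfp560 at 0.96, Zfp629 at 0.65 and Zfp637 at 0.64 on the log2 scale. After Zfp819 the lowest was Zfp516, a factor of brown fat gene expression, which measured 98.4, 99.6 and 102 TPM in WT, 73.0, 76.2 and 77.9 in dKO and 54.5, 49.4 and 53.7 in dCD. Its log2 fold change was -0.92 in dCD (SE 0.0394, limma adjusted p = 2.60e-08) and -0.40 in dKO, so dCD held the lowest libraries. Zfp808 averaged 59.2 ± 5.90 TPM in WT, 55.3 ± 2.75 in dKO and 36.4 ± 3.5 in dCD, with a log2 fold change of -0.69 in dCD (limma adjusted p = 3.76e-05) and no pass in dKO (limma adjusted p = 0.314). The rest of the 10 lowest were Zfp553, Zfp936, Zfp532, Zfp706, Zfp846, Zfp658 and Zfp950, at -0.77 to -0.45.

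The direct comparison of dKO with dCD tests where the 2 mutant lines differed. In dKO 91 of 161 genes were higher (56.5%) and 21 lower (13%), where 42.3% and 27% of all tested genes were (69.3% in either direction). The median log2 difference was 0.25, against 0.10 over all tested genes. At least 2-fold, 7 were higher in dKO and 5 lower, where all tested genes gave 3.6% and 7.36%. The share of higher calls was 81.2% on TPM and 76.2% after median-ratio scaling, and over all tested genes 61.0% and 48.9%, and this scaling put the median difference of the 161 genes at 0.16. On TPM, among the 151 genes with a WT library at 1 TPM, 85 were higher in dKO and 21 lower. Their median was 0.25, and 5 were higher and 5 lower by 2-fold.

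Among the genes higher in dKO than in dCD were some whose dCD level lay below WT. Zfp553 measured 160.5, 156.7 and 157.4 TPM in WT, 192.7, 190.7 and 189.4 in dKO and 91.7, 89.9 and 95.5 in dCD. The dKO libraries were therefore the highest and the dCD libraries the lowest, with a log2 difference of 1.04 between them (SE 0.0253, limma adjusted p = 2.13e-10). Zfp532, a component of a chromatin complex with Zfp687, averaged 27.9 ± 0.462, 47.0 ± 0.318 and 19.4 ± 0.477 TPM in WT, dKO and dCD (dKO against dCD 1.23, limma adjusted p = 2.17e-10). Zfp773 averaged 6.59 ± 0.248, 15.3 ± 1.41 and 4.98 ± 0.225 TPM (1.44), and Zfp827, known from telomere chromatin, 7.69 ± 0.593, 14.8 ± 0.192 and 5.43 ± 0.474 TPM (1.30). In all 4 genes the mutant lines stood on opposite sides of WT, each past the test. Zfp521 and Zfp783 were also among the 5 highest, at 1.72 and 1.11, and both had reached the minimum through mutant libraries. The 5 lowest were Zfp600, Zfp819, Zfp951, Zfp534 and Zfp568, at -1.52 to -1.11.

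Of 24 tested genes listed for a known role, 11 were higher and 10 lower in dKO (45.8% and 41.7%, where all tested genes gave 43.4% and 28.4%), and 7 and 9 in dCD (29.2% and 37.5%, against 28.9% and 29.5%). These counts and shares include Zfp518a, which lies outside the Zfp500 to Zfp999 set because a letter follows its number. The list was chosen with earlier results known. It holds Zfp503, Zfp521, Zfp608 and Zfp703, which reached the minimum through mutant libraries alone and were higher in both mutant lines. Its shares of higher calls thus follow in part from the minimum. Zfp809, a KRAB repressor that recognises the primer binding site of murine leukaemia viruses, measured 69.3, 65.8 and 67.7 TPM in WT, 55.0, 52.4 and 56.2 in dKO and 61.1, 66.5 and 61.7 in dCD. Its dKO libraries lay below both other lines (log2 fold change -0.31 against WT, SE 0.0394, limma adjusted p = 4.69e-05), and its dCD libraries overlapped WT without passing (limma adjusted p = 0.0538, and 0.0112 to 0.172 over the alternatives, the lowest without dCD replicate 2). Zfp809 passed as lower in dCD with a minimum of 5 TPM, with quantile normalization and without WT replicate 2, dKO replicate 2 or dCD replicate 2. Zfp932, a KRAB repressor of endogenous retroviruses, averaged 11 ± 0.519, 11.6 ± 0.617 and 9.60 ± 0.372 TPM and passed as lower in dCD (log2 fold change -0.18, limma adjusted p = 0.0162, and 0.00789 to 0.0615 over the alternatives, missing the threshold without WT replicate 2 or dCD replicate 2). Zfp687 averaged 40.8 ± 1.57, 60.8 ± 1.48 and 45.3 ± 1.11 TPM and was higher in both mutant lines. Zfp609, a paralogue of Zfp608, averaged 41.0 ± 1.71, 53.8 ± 0.608 and 49.6 ± 3.5 TPM and was also higher in both. Zfp644, a partner of the Ehmt1 and Ehmt2 methyltransferases, rose in dKO from 11.4 ± 0.346 to 15.7 ± 0.346 TPM. Zfp750, an epidermal differentiation factor, averaged 1.28 ± 0.239, 2.44 ± 0.608 and 1.13 ± 0.353 TPM on 29 to 74 reads per library and was higher in dKO (limma adjusted p = 0.00810).

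The remaining genes of that list that belong to the set moved by small amounts. Zfp704 averaged 29.6 ± 0.443, 23.0 ± 0.671 and 22.4 ± 0.948 TPM and was lower in both mutant lines, at -0.35 and -0.38 on the log2 scale. Zfp507 averaged 20 ± 0.792, 25.4 ± 1.21 and 21.3 ± 0.635 TPM and was higher in dKO at 0.33. Zfp652, a transcriptional repressor, averaged 24.2 ± 0.449, 27.1 ± 0.637 and 18.4 ± 1.47 TPM and was lower in dCD at -0.38. Its call as higher in dKO (0.15, limma adjusted p = 0.0226) was lost under median-ratio scaling and quantile normalization and without WT replicate 1, WT replicate 2 or dKO replicate 3. Zfp638, which silences incoming retroviral DNA, averaged 31.0 ± 1.51, 28.1 ± 0.643 and 26.7 ± 1.45 TPM and was lower in dCD at -0.21. Its call as lower in dKO (-0.13, limma adjusted p = 0.0257) was lost without WT replicate 1 or 3 and without dKO replicate 1 or 3. Zfp622 averaged 139 ± 1.97, 131 ± 2.20 and 145 ± 2.71 TPM and was lower in dKO at -0.09. Zfp830, at 63.8 ± 1.70, 61.6 ± 2.27 and 65.1 ± 2.09 TPM, passed neither comparison, though it passed as lower in dKO after median-ratio scaling (limma adjusted p = 0.00432) and quantile normalization.

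Position in the genome gave a further description of the set, using gene order in the GRCm38.p6 table. Chromosome 7 held 46 of the tested genes, chromosome 17 held 22 and chromosome 8 held 16. Runs were formed of genes of the set with at most 10 other protein-coding genes between them, and 109 of 174 placed rows fell in 28 runs of at least 2. Genes in runs and genes alone had median log2 fold changes of 0.25 and 0.31 in dKO, with 58 of 104 and 32 of 56 called higher and 20 and 12 called lower. The shares were 55.8% and 57.1% higher and 19.2% and 21.4% lower, against 43.4% and 28.4% over all tested genes. Of the genes that reached the minimum through mutant libraries alone, Zfp503, Zfp521, Zfp608, Zfp618, Zfp703, Zfp853 and Zfp879 stood alone, and Zfp677 and Zfp964 in runs. The comparison of runs with genes alone was not repeated without them.

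Single runs are described here beside the shares of all tested genes, 43.4% higher and 28.4% lower in dKO and 28.9% and 29.5% in dCD. The whole Zfp500 to Zfp999 set gave 56.5% and 19.9% in dKO, and 24.2% and 27.3% in dCD. Each run holds few genes, and a difference between a run and the set was not tested. The run from Zfp553 to Zfp646 on chromosome 7, with Zfp768 and Zfp771, had 9 of 10 genes higher and 1 (Zfp689) lower in dKO, at a median of 0.51, and 5 higher and 2 lower in dCD. The run from Zfp628 to Zfp580 on the same chromosome had 4 of 5 higher and none lower in dKO at a median of 0.83, with Zfp579 at 0.01 not called. In the run of 11 genes from Zfp677 to Zfp945 on chromosome 17, 7 were higher and 2 lower in dKO. Zfp677 itself reached the minimum through dKO alone. From Zfp640 to Zfp738 on chromosome 13, 4 of 7 were higher and 1 (Zfp640) lower in dKO, whereas in dCD 1 was higher and 4 lower, at a median of -0.23. On chromosome 4, Zfp933 was higher in dKO at 0.38 beside the 2 falling genes Zfp600 and Zfp534. Beside Zfp819 on chromosome 7, Zfp658 was lower in dKO and Zfp719 was not called, and all 3 genes were lower in dCD. Neighbours in a run can be close copies, so their values may share reads.

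**Figure D3:**
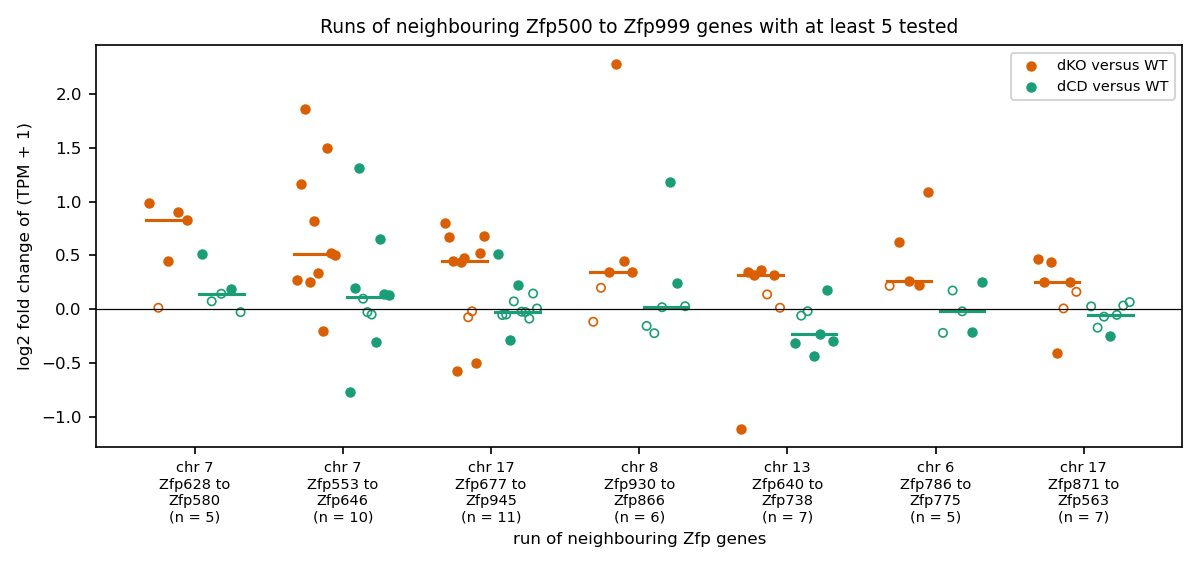
Log2 fold change of (TPM + 1) of each gene in the 7 runs with at least 5 tested genes, for dKO against WT (orange) and dCD against WT (green). Filled points passed the test, open points did not, and lines mark the run's median, which lies between 0.25 and 0.83 in dKO and between -0.23 and 0.14 in dCD.

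The genes were also split by mean level. The 54 genes with the lowest mean level (0.886 to 6.13 TPM) had 33 higher and 5 lower in dKO, at a median of 0.36. All 10 genes that reached the minimum through mutant libraries alone are among them, and without those 23 of 44 were higher and 5 lower, at a median of 0.31. The 54 with the highest (16 to 181.6 TPM) had 28 higher and 18 lower, at a median of 0.13. In dCD the low group had 15 higher and 8 lower (27.8% and 14.8%, and 7 and 8 without the 10 genes). The high group had 13 higher and 22 lower in dCD (24.1% and 40.7%). All tested genes gave 43.4% higher and 28.4% lower in dKO, and 28.9% and 29.5% in dCD. Those in the level range of the low group gave 31.2% and 26.5% in dKO, and 23.6% and 23.1% in dCD. Those in the range of the high group gave 52.3% and 29.2% in dKO, and 31.9% and 34.6% in dCD. The split without the 10 genes was added after the data were seen. Across the 161 genes Spearman's rho between mean level and log2 fold change was -0.24 in dKO and -0.23 in dCD, and between gene length and log2 fold change 0.08 and 0.00. Genes share the same libraries and are not independent replicates, and the mean level contains the mutant libraries.

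Promoter letters were compared next, a description chosen after expression values were seen. RefSeq windows were found for 134 of the tested genes, 164 windows in all. They held a median of 15 CG dinucleotides, against 7 over all 32851 windows of the table and 15 over 165 windows of genes named Zfp1 to Zfp499. The table also holds genes that did not reach the minimum. Against tested genes with a window the order was the other way in each dKO class of call given below. The letters CCAAT, searched on both strands, were in 50% of the windows and in 37.4% of all windows. CCGGAAG was in 17.1% and 8.86%, AAGATGGC in 4.88% and 2.75%, and TATAAA in 4.88% and 13.6%. In the windows of Zfp1 to Zfp499 these 4 shares were 41.8%, 26.1%, 6.06% and 9.70%. The 4 motifs were counted separately, so a window can hold several, and a match is not a site of binding. Motif shares were not computed over tested genes alone, so they do not tell whether the set differs from other expressed genes. Windows and not genes were counted, so overlapping windows of a gene, as for Zfp958 and Zfp809, count more than once.

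Taking each gene's window with the most CG dinucleotides, genes higher in dKO held a median of 19.5, genes lower 11.5 and genes not called 11.5. Over all tested genes with a window these medians were 23.0, 20 and 22.0. Of 48 zinc finger genes with over 20 CG dinucleotides, 75% were higher and 8.33% lower in dKO, at a median log2 fold change of 0.35. Of 46 with at most 10, 47.8% were higher and 23.9% lower, at a median of 0.14. For all tested genes the same classes gave 52.0% and 26.2%, and 33.4% and 41.8%, and for Zfp1 to Zfp499 73.5% and 11.8%, and 45.9% and 8.11%. The class with over 20 holds 4 genes that passed the minimum through mutant libraries alone (Zfp618, Zfp783, Zfp853 and Zfp964), and without such genes, a split added after the data were seen, the classes gave 72.7% and 9.09%, and 45.5% and 25%. In dCD the classes of zinc finger genes gave 41.7% higher and 16.7% lower with over 20, and 10.9% higher and 41.3% lower with at most 10. All tested genes gave 34.3% and 30.0%, and 29.1% and 36.6%, and Zfp1 to Zfp499 29.4% and 20.6%, and 13.5% and 29.7%. Spearman's rho between the count and the log2 fold change was 0.36 in dKO and 0.37 in dCD over 134 genes, 0.12 and 0.07 over 10540 tested genes, and 0.04 and 0.21 over 127 genes named Zfp1 to Zfp499. These values are across genes that share libraries, base composition and, in part, sequence.

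**Figure D4:**
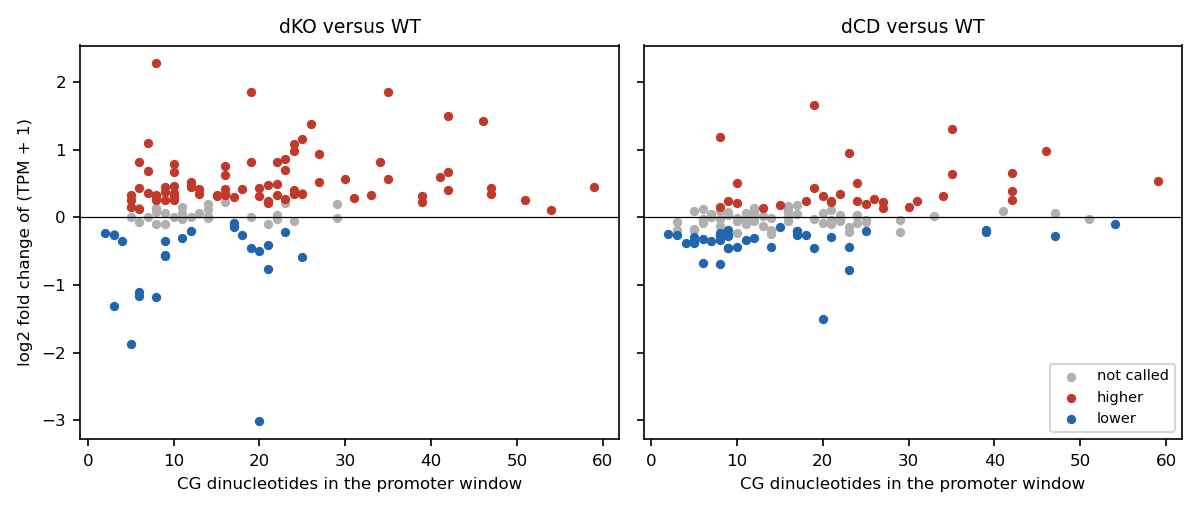
Log2 fold change of (TPM + 1) against the number of CG dinucleotides in the gene's promoter window, for the 134 zinc finger genes with a window. Genes called lower (blue) have a median of 11.5 CG dinucleotides in dKO and 10 in dCD, and genes called higher (red) 19.5 and 24.0.

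The nearest comparison is with the genes named Zfp1 to Zfp499, of which 155 of 166 rows were tested. In dKO 84 were higher and 27 lower (54.2% and 17.4%, against 43.4% and 28.4% of all tested genes), at a median log2 fold change of 0.22. In dCD 34 were higher and 45 lower (21.9% and 29%, against 28.9% and 29.5%), at a median of -0.04. Between dKO and dCD 92 were higher and 15 lower (59.4% and 9.68%, against 42.3% and 27%), at a median of 0.22. These medians lie within 0.05 of those of Zfp500 to Zfp999. At least 2-fold in dKO, 7 and 3 of the lower-numbered genes changed, against 12 and 6. Among the 151 genes of Zfp500 to Zfp999 with a WT library at 1 TPM, 7 were higher and 6 lower by 2-fold. The lower-numbered genes were not split in this way. A difference between the sets was not tested.

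The partners that KRAB zinc finger proteins act through were expressed in all lines. Of 25 corepressor and heterochromatin genes, 10 were higher and 13 lower in dKO (40% and 52%, against 43.4% and 28.4% of all tested genes), at a median log2 fold change of -0.08. In dCD 8 were higher and 6 lower (32% and 24%, against 28.9% and 29.5%), at a median of -0.01. Trim28 averaged 2523 ± 90.9 TPM in WT, 2079 ± 12.8 in dKO and 2443 ± 34.2 in dCD, a log2 fold change of -0.28 in dKO (SE 0.0256, limma adjusted p = 3.49e-06) and no pass in dCD (limma adjusted p = 0.153, and 0.0277 to 0.498 over the alternatives, the lowest without WT replicate 3). It also passed as lower in dCD with voom on recovered reads (limma adjusted p = 0.0421). Setdb1 averaged 116 ± 2.43, 90.6 ± 0.858 and 80.9 ± 1.39 TPM and was lower in both mutant lines. Chd3, a remodeller, rose in dKO from 12 ± 0.376 to 36.9 ± 0.630 TPM and averaged 12 ± 0.693 TPM in dCD. Suv39h1, another methyltransferase of silent chromatin, averaged 6.57 ± 0.213, 35.8 ± 1.14 and 16.3 ± 0.523 TPM and rose in both (log2 fold changes 2.28 and 1.19). Of 4 zinc finger genes of known role outside the number range (Zfp57, Zfp445, Rsl1 and Gm15446), 2 were higher in dKO and 1 lower in dCD. These are 50% and 25%, against 43.4% and 29.5% of all tested genes. Rsl1 was not called in dKO at 0.37 on the log2 scale, but passed as higher in some alternatives. Its lowest value was with voom on recovered reads (limma adjusted p = 0.0236). The imprint-protecting Zfp57 and Zfp445 averaged 403 and 48.5 TPM in WT, 522 and 62.9 in dKO and 349 and 48.6 in dCD.

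**Figure D5:**
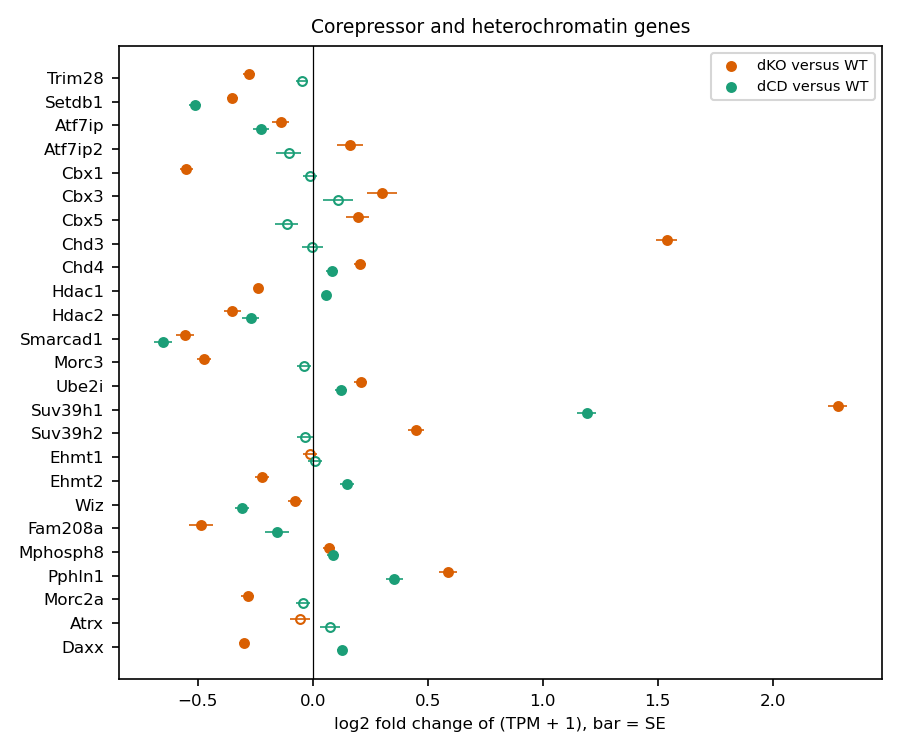
Log2 fold change of (TPM + 1) with its standard error for 25 corepressor and heterochromatin genes, in dKO (orange) and dCD (green) against WT. Filled points passed the test, and the 2 genes past 2-fold are Suv39h1 in both lines and Chd3 in dKO.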

How the data were processed

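The 9 RNA-seq libraries, out of 48 samples, were used and grouped by title. The deposited table lists the length of each gene and its TPM in each library. The submitters' processing notes name HISAT2, featureCounts and DESeq2, with no versions or roles, and the build mm9. Not given in the sources used here are the annotation, the strand setting and the handling of multiply matching reads, so overlapping or antisense genes and near-identical copies cannot be told apart. TPM times length gave whole reads for 100% of values within 0.01, which set the depth of 21090624 to 56249770 reads. Chi-square per degree of freedom between replicates was 1.58 to 4.14, so no library was a copy.

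Genes with at least 1 TPM in 3 of 9 libraries were tested with limma 3.58.1 (R 4.3.3; lmFit, eBayes with trend) on log2(TPM + 1), all lines in 1 fit, two-sided, with Benjamini-Hochberg adjustment over 16179 genes and a threshold of 0.05. Fold changes on this scale understate low genes. The code was tested on simulated data. Python 3.11.15 with pandas 2.3.3, numpy 2.4.6, biopython 1.88 (pairwise alignments) and matplotlib 3.10.9 (plots) was used for the rest. Named genes were the 10 highest and 10 lowest called genes per mutant line (5 and 5 between dKO and dCD) whose libraries did not overlap and whose mean reached 1 TPM in a compared line, plus genes of known role and the 5 at the highest level. Of 177 rows, 176 matched the reference gene table by symbol and 1 by synonym. Protein domains were not analysed here. The genes and lists were chosen with earlier results of these data known.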

Additional observations from a re-analysis of the deposited data

How the results depend on the processing

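Counts of called genes stayed within 1.5 times of the reported ones in every alternative run (a pseudocount of 0.1, a minimum of 5 TPM or none, median-ratio scaling, quantile normalization, voom on recovered reads, 2 lines per fit, the replicate block and leaving out each library), except that voom called 11 genes at least 2-fold higher in dCD, against 6. Median-ratio scaling gave median log2 fold changes of 0.16 in dKO against WT and 0.16 in dKO against dCD, and quantile normalization 0.20 in the latter. Leaving out each library in turn gave medians of 0.26 to 0.30 in dKO, -0.036 to -0.00058 in dCD and 0.22 to 0.26 in dKO against dCD, the dCD value nearest 0 being without dCD replicate 3. Over the same removals 86 to 92 genes were higher and 27 to 31 lower in dKO, 32 to 37 and 43 to 47 in dCD, and 82 to 91 and 19 to 21 between dKO and dCD. The cause of these shifts was not tested.

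Same-numbered libraries did not deviate together (r from -0.05 to 0.04 over 9 pairs, and 4 of 18 correlated best with their own number), so the numbers give no pairing. With the replicate block, 90 genes were higher and 30 lower in dKO, 35 and 45 in dCD, and 92 and 20 in dKO against dCD. Of 2435 values of single genes under an alternative, 2358 kept their call or lack of one, 46 lost a call with the sign kept and 30 gained one. The remaining 1 lost its call with a change of sign: Mphosph8 in dKO against WT, at -0.033 under median-ratio scaling. Changes of sign among values without a call in both fits were not counted. Depth limits genes with few reads, such as Zfp608 with 2 to 5 reads per WT library.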
